A study of Homo sapiens with 3 samples.

Results

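The genes that write, copy and remove cytosine methylation were followed across 3 arrays of HCT116 cells, an established human colorectal cancer line. They were taken by name from the array annotation: the DNA methyltransferases DNMT1, DNMT3A, DNMT3B and DNMT3L, the maintenance factor UHRF1, and the dioxygenases TET1, TET2 and TET3, 8 genes among 43299 gene names. These genes held 18 probes, and 7 of the 8 were among the 22619 genes with a probe well above background on at least 1 array. SMARCA4-KD1 and SMARCA4-KD2 (KD1 and KD2 below) were HCT116 cells transfected through Lipofectamine 3000 with an siRNA against SMARCA4, the ATPase subunit of the SWI/SNF chromatin remodelling complex also called Brg1, and NC was the scrambled negative control. Total RNA of each condition was hybridised in 1 colour (Cy3) to 1 array, so no difference below has a replicate check. By the scan identifier of each array, both knockdown arrays came from 1 scan and NC from another, read below as slides 1 and 2. Slide and knockdown therefore cannot be told apart, and both knockdowns were set against the same NC array.

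DNA methylation in mammals is laid down at CpG dinucleotides by the de novo enzymes DNMT3A and DNMT3B, helped in germ cells by the catalytically inactive DNMT3L. It is copied after each round of replication by DNMT1, which UHRF1 brings to hemimethylated sites. TET enzymes oxidise 5-methylcytosine, and base excision repair led by TDG then restores cytosine, and in colorectal cancer many CpG island promoters gain methylation while the rest of the genome loses it. The arrays measured RNA of these genes, not methylation itself.

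The knockdown was measured first. SMARCA4 gave a signal of 3960 in KD1, 4129 in KD2 and 14026 in NC, which left 26.6% and 28.8% of the NC level after scaling. PRMT1, the gene named in the treatment field of the same samples, whose titles name SMARCA4, gave 9801, 10147 and 7683, 120% and 129% of NC. The groups are therefore named here by the titles and numbered by the treatment field. All 8 epithelial markers checked (EPCAM, CDH1, KRT8, KRT18, KRT19, CLDN4, CLDN7 and ELF3) were well above background on every array, from a signal of 2219 for ELF3 to 217698 for KRT19. Of these, CLDN4 was lower in both knockdowns (log2 difference -0.67 and -0.68, with -0.09 as the mean of its other probe) and CLDN7 higher (0.79 and 0.72), both being claudins of tight junctions. Of 11 markers of blood, endothelial and fibroblast cells, CD3E, PECAM1, COL3A1, DCN and LUM were not well above background on any array. PTPRC, CD14, CDH5 and VWF stayed between 24.1 and 61.2, and COL1A1 was at 348 in NC, 477 in KD1 and 387 in KD2. Between 45.7% and 47.3% of 58201 probes were well above background on an array.

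Below, a signal is the scanner's processed intensity, and a log2 difference is the knockdown minus NC after each array was divided by its own 75th percentile. The error given after a difference is the extraction software's error of both spots combined, which covers spot and background noise on these arrays and nothing between cultures. The study's threshold of 1.5-fold, 0.58 on the log2 scale, was used without a test. In KD1 12.2% of all genes were at least 1.5-fold lower than NC and 11.2% at least 1.5-fold higher, and in KD2 9.74% were lower and 10.1% higher. In both knockdowns together 8.02% were lower and 6.36% higher. Counting a difference of any size, 39.8% of the 19503 genes well above background on all arrays were lower in both and 45.2% higher. Of the 7 measured genes of the methylation machinery, 1 (DNMT3A) was at least 1.5-fold lower and 1 (DNMT3B) at least 1.5-fold higher in each knockdown, and 5 reached the threshold in neither direction in both. With 7 genes, 1 gene in a direction is not set apart from these background shares. Their median log2 difference was -0.13 in KD1 and -0.23 in KD2, against -0.0022 and 0.02 over all genes. Both medians are the values of TET1 by its brightest probe, while its other probe was higher than NC. TET3 entered them with its NC value set to the floor.

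**Figure D1:**
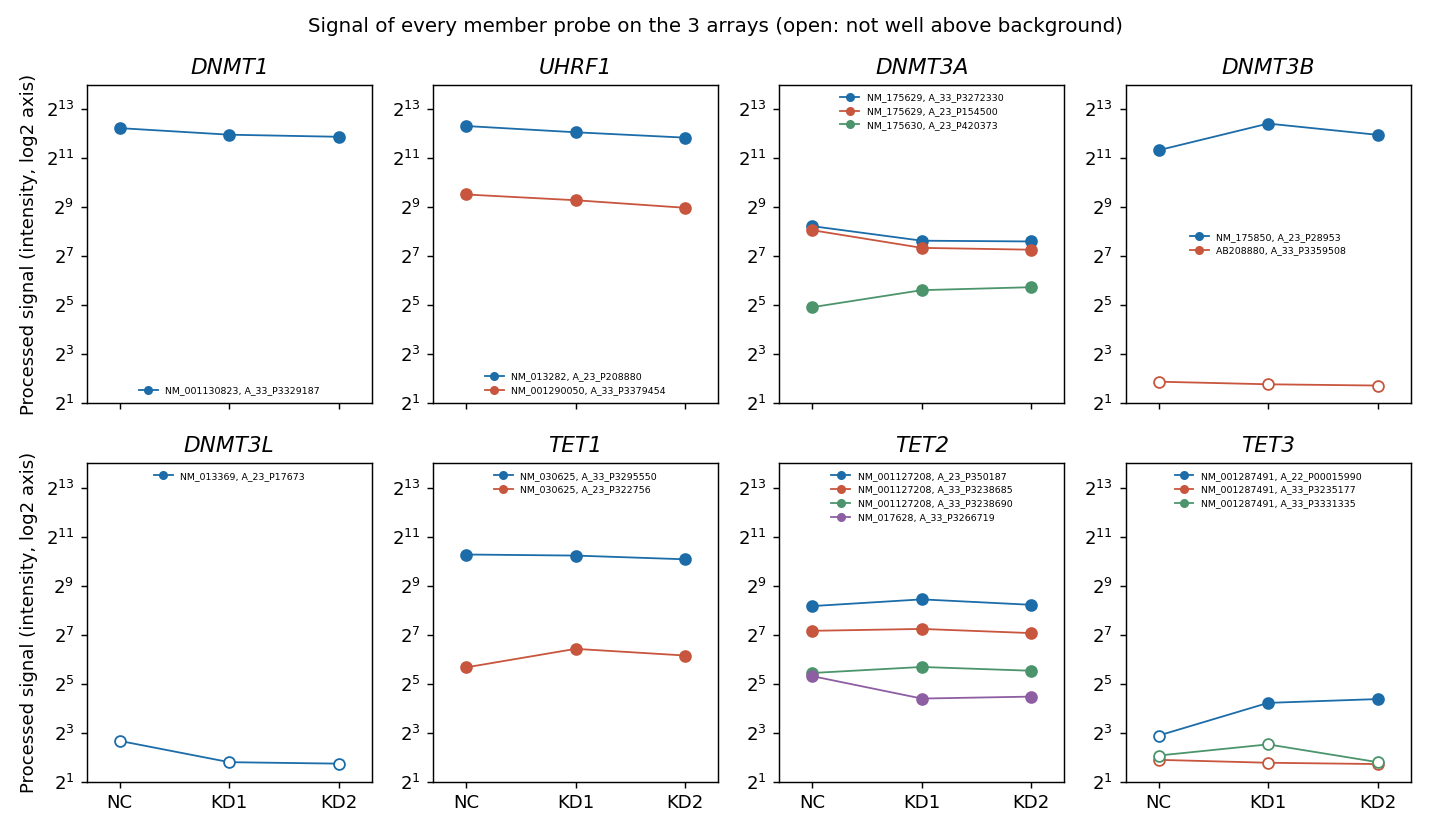
Processed signal (log2 axis) of each of the 18 probes for the 8 genes in NC, SMARCA4-KD1 and SMARCA4-KD2, 1 array each. Filled points are well above background, open points are not. DNMT1, UHRF1 and DNMT3B had a bright probe on every array, at a signal of 2580 or more, DNMT3L stayed at or under 6.34, and within DNMT3A, TET1 and TET2 the probes did not move together.

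DNMT1, the enzyme that copies methylation to the new strand, gave a signal of 4006 in KD1, 3775 in KD2 and 4826 in NC. Both knockdown arrays were below NC, at 78.3% and 76.5% of its level (log2 difference -0.35 and -0.39, error 0.20), short of 1.5-fold. The knockdown arrays differed from each other by 0.03, inside the central 95% of that difference over the 1000 probes nearest in intensity (-0.28 to 0.30). The probe lies at chr19:10244023-10244082 on the minus strand of hg19 and is annotated to NM_001130823 and NM_001379. In RNA of a whole culture, fewer cells of a kind and less RNA per cell cannot be told apart.

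UHRF1, which reads hemimethylated CpG and ubiquitinates histone H3 to hold DNMT1 there, was measured by 2 probes of the same 4 transcripts. The brighter one, at chr19:4962065-4962124, gave 4290 in KD1, 3686 in KD2 and 5123 in NC, log2 differences of -0.34 and -0.51 (error 0.20). The dimmer one, at chr19:4960895-4960954, gave 627, 506 and 738, log2 differences of -0.32 and -0.58 (error 0.20). Both probes therefore placed UHRF1 lower in both knockdowns, with the lower value in KD2, and neither reached 1.5-fold in both. The difference between the knockdowns, 0.17 and 0.26, lay inside the central 95% for probes of like intensity (-0.27 to 0.31 and -0.36 to 0.39).

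DNMT1 and UHRF1 differed from NC in the same direction, so promoter windows of both are shown, for UHRF1 the 2 of its 3 windows that held a match to the motifs below. Each window is RefSeq sequence of GRCh38.p14 from 250 bases before to 50 after an annotated start, a different build from the probe positions, which are hg19. Windows were found for 7 of the 8 genes, 18 in all, with none matched for DNMT3L. They were searched on both strands for 4 spellings of the E2F site (TTTCCCGC, TTTCGCGC, TTTGCCGC and TTTGGCGC), the site of the factors that drive S-phase genes, and for CCAAT. None of the E2F spellings holds CCAAT. Capitals mark the matches.
DNMT1, chr19:10194904-10195203, minus strand: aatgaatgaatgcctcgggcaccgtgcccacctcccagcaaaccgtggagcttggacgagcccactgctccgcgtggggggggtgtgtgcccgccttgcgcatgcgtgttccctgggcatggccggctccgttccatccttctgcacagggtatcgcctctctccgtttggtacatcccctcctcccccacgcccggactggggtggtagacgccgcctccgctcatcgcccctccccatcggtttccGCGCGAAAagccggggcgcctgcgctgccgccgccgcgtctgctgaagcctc
UHRF1, chr19:4909894-4910193, plus strand: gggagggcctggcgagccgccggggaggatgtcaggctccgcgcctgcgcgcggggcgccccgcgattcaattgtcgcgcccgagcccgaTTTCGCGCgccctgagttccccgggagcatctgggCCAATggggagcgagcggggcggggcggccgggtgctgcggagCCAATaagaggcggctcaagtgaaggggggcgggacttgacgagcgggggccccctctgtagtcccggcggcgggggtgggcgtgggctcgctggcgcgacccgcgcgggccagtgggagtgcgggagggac
UHRF1, chr19:4909251-4909550, plus strand: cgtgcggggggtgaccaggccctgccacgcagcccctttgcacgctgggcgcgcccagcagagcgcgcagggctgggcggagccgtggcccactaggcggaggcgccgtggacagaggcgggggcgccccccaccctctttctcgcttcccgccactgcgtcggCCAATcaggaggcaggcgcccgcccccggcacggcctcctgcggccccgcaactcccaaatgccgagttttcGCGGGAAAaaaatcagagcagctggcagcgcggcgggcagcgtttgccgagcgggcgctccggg
An E2F spelling was present in the single DNMT1 window and in 2 of the 3 UHRF1 windows, against 3.32% of all 35116 windows, and in 0 of the 14 windows of the other genes. CCAAT was present in 6 of the 18 windows against 34.6% of all, and the GC box GGGCGG in 11 of the 18 against 45.0%. DNMT1 and UHRF1 were picked by their values, and some windows of the same gene overlap, so these shares are a description only. These are matches of letters, binding was not measured, and a role of E2F was not tested.

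Because maintenance methylation runs at the replication fork, 20 S-phase replication genes were read beside DNMT1 and UHRF1. All 20 were well above background on each array. Of them 17 were lower and 2 higher than NC in both knockdowns, 4 by 1.5-fold or more, all 4 lower, against 39.8% of all genes measured on each array lower by any size and 8.02% of all genes lower by 1.5-fold. The shared NC array enters each of these counts. Their median log2 difference was -0.22 in KD1 and -0.32 in KD2. MCM5, a subunit of the replicative helicase, differed by -0.68 and -0.66, and CDC45, its activating partner, by -0.59 and -0.65. FEN1, the flap nuclease of the lagging strand, differed by -0.59 and -0.76, and CHAF1A, a histone chaperone of newly made DNA, by -0.61 and -0.63. After normexp CDC45 (-0.50 and -0.54) and FEN1 (-0.50 and -0.64) fell short of the threshold in at least 1 knockdown, as did CHAF1A when its probes were averaged (-0.51 and -0.70). The part of this shift in the DNMT1 and UHRF1 values was not tested. Of 16 partners of maintenance methylation, 3 were at least 1.5-fold lower in both knockdowns and 0 higher, against 8.02% and 6.36% of all genes. Their medians were -0.02 and -0.05. LIG1, the replication ligase that recruits UHRF1 when methylated, gave 2598 and 2566 in the knockdowns and 4214 in NC (-0.78 and -0.75). The histone H3 lysine 9 methyltransferase genes EHMT2 (-0.85 and -0.62) and SUV39H1 (-0.60 and -0.81) were the others. After normexp EHMT2 was at -0.72 and -0.55 and SUV39H1 at -0.46 and -0.65, and SUV39H1 was at -0.53 and -0.69 over its probes, so neither kept the call there. PCNA, the sliding clamp that DNMT1 binds, was at -0.45 and -0.46, while HELLS, the remodeller needed for methylation of repeats, was at -0.15 and -0.28 and USP7, which stabilises UHRF1 and DNMT1, at 0.37 and 0.25.

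DNMT3A, a de novo methyltransferase, was measured by 3 probes that did not agree in direction. The brightest, at chr2:25457095-25457154 on the minus strand, gave 199 in KD1, 195 in KD2 and 301 in NC. A second, at chr2:25456415-25456474, gave 163, 155 and 269. Both are annotated to NM_175629, NM_022552 and NM_153759, and both were at least 1.5-fold lower in each knockdown, by -0.68 and -0.66 (error 0.21) and by -0.81 and -0.83 (error 0.21). The third probe, at chr2:25504394-25504453, is annotated to NM_175630 alone and gave 49.2 in KD1, 53.5 in KD2 and 30.4 in NC. It was at least 1.5-fold higher in each knockdown, by 0.61 and 0.78 (error 0.28), so the direction of DNMT3A differed between probes of different transcripts. With the mean over the 3 probes DNMT3A differed by -0.29 and -0.23 and did not reach the threshold. The first 30 bases of each 60-base probe are given because the probes part ways.
DNMT3A, A_33_P3272330, lower: tgtgtaagggacatgggggcaaactgaggt
DNMT3A, A_23_P154500, lower: agggagacgagaacaccacacaagacattt
DNMT3A, A_23_P420373, higher: caaaaagtcttccttccaagcgtgtatgat

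DNMT3B, the other de novo enzyme, was higher in both knockdowns. Its bright probe, at chr20:31397064-31397123 and annotated to NM_175850, NM_006892, NM_175848 and NM_175849, gave 5488 in KD1, 3990 in KD2 and 2580 in NC. That is 2.01-fold and 1.51-fold of NC, or 1.00 and 0.60 on the log2 scale (error 0.20). KD1 exceeded KD2 by 0.41, outside the central 95% of that difference over the 1000 probes nearest in intensity (-0.31 to 0.33), so the arrays of the knockdowns stood apart in size but not in direction. The KD2 value sat close to the threshold: it was 0.55 with the percentile taken over bright probes, 0.56 after quantile normalization and 0.58 after normexp background correction, each just under 1.5-fold. The gene's other probe, annotated to AB208880, gave 3.43, 3.31 and 3.69, not well above background on any array. DNMT3L, the inactive cofactor of germ cells, gave 3.47 in KD1, 3.33 in KD2 and 6.34 in NC. No array measured it, since the lowest signal well above background was 16.9, 16.4 and 17.7 in that order, so no fold is given.

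**Figure D2:**
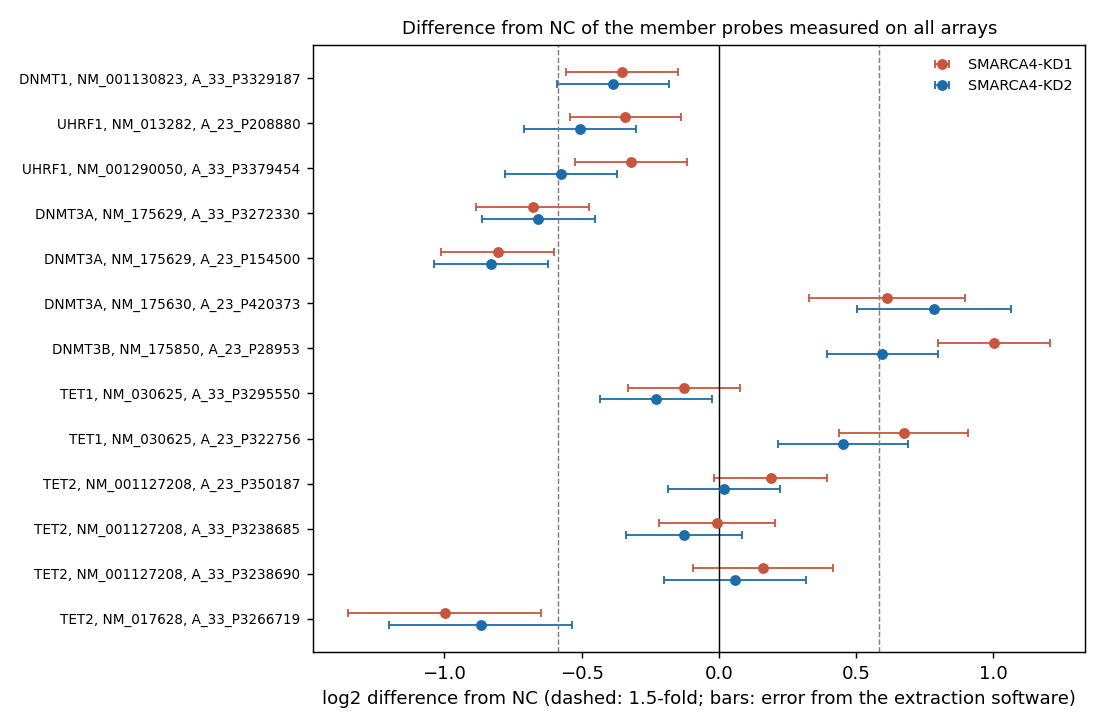
Log2 difference from NC of the 13 probes of these genes that were well above background on all 3 arrays, for SMARCA4-KD1 and SMARCA4-KD2, 1 array each; bars are the extraction software's error and dashed lines 1.5-fold. The DNMT1 and UHRF1 probes all lie left of 0, and DNMT3B lies right of it at 1.00 and 0.60. The TET1 probes lie on opposite sides of 0, and 1 DNMT3A probe lies right of 0 with the others left. For TET2, 1 probe lies well left of the others, which stay near 0.

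The promoter windows of DNMT3B and DNMT3A held the fewest and, with UHRF1, the most CpG of the set, so 1 of each is shown, with CCAAT in capitals where it occurs.
DNMT3A, chr2:25341876-25342175, minus strand: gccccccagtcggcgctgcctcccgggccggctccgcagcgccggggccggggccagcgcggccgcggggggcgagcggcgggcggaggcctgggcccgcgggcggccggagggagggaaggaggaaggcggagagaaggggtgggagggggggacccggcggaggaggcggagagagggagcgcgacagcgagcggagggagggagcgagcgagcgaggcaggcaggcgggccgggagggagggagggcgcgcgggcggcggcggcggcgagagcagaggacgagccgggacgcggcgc
DNMT3B, chr20:32779602-32779901, plus strand: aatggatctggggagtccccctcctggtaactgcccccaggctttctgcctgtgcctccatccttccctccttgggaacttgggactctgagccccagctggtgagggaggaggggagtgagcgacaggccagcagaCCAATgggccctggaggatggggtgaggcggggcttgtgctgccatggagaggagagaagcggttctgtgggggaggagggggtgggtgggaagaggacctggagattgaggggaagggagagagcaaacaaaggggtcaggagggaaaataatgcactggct
The DNMT3A window held 46 CpG in its 300 bases, and the 6 DNMT3A windows between 18 and 46. The single DNMT3B window found held 3, with an observed over expected CpG ratio of 0.118. Any other start of DNMT3B was not covered, so this count describes that window and not the gene. The median of all windows was 14. DNMT1 had 30, UHRF1 36 to 46, TET1 6 to 11, TET2 13 to 35 and TET3 33 to 45. GRCh38.p14 starts of a gene need not be the ones used in HCT116 cells, and methylation of these windows was not measured.

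**Figure D3:**
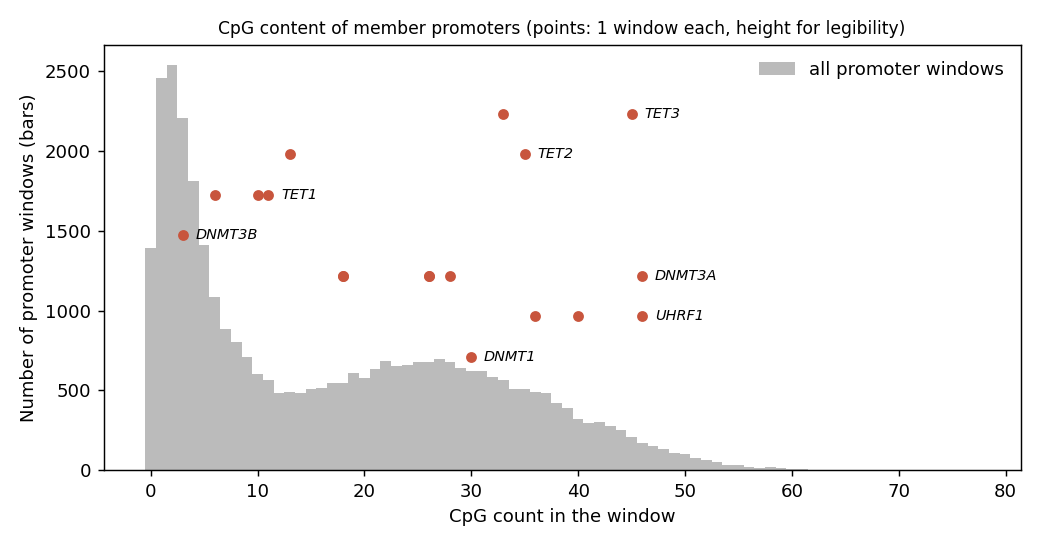
CpG count per 300-base promoter window (x axis) for all 35116 RefSeq windows (grey bars, number of windows on the y axis) and for the 18 windows of 7 of these genes (points, 1 row per gene, placed at a height chosen only for legibility). The single DNMT3B window found sits among the CpG-poor windows with 3, while windows of DNMT1, UHRF1 and TET3 hold 30 or more. Any other start of DNMT3B is not covered.

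The TET genes, whose products start active demethylation, showed no shared direction. TET1 was measured by 2 probes of the same transcript, NM_030625. The brighter, at chr10:70332072-70332131, gave 1202 in KD1, 1082 in KD2 and 1239 in NC, differences of -0.13 and -0.23 (error 0.20). The other, at chr10:70453516-70453575, gave 85.8, 71.0 and 50.7, differences of 0.67 and 0.45 (error 0.24). The pair therefore disagreed in sign in both knockdowns, and no direction is given for TET1.
TET1, A_33_P3295550, lower: ttcattttttcctactctgtagctatgtct
TET1, A_23_P322756, higher: ttactagtattagactatcaggaatacacc

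TET2 was measured by 4 probes. A trio annotated to NM_001127208 stayed within 0.19 of NC on the log2 scale. The brightest of them, at chr4:106200570-106200629, gave 348 in KD1, 298 in KD2 and 288 in NC (0.19 and 0.02, error 0.21). The next, at chr4:106193920-106193979, gave 151, 134 and 143 (-0.01 and -0.13), and the last, at chr4:106199618-106199677, gave 51.4, 46.2 and 43.3 (0.16 and 0.06). The fourth probe, at chr4:106163842-106163901, is annotated to NM_017628 alone and gave 21.0 in KD1, 22.2 in KD2 and 39.6 in NC. It was 50.01% and 54.8% of NC (-0.9997 and -0.87, error 0.35 and 0.33), at signals near the lowest that count as well above background. As with DNMT3A, a dim probe of another transcript gave another answer, and whether the transcript matters was not tested.
TET2, A_23_P350187, near NC: ttgctaatataggaatatcaggttgactat
TET2, A_33_P3266719, lower: ggcgtagacctgtttaaaaaataataaacc

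TET3 was close to the floor. Of its 3 probes, those at chr2:74328560-74328619 and chr2:74329639-74329698 were not well above background on any array. The remaining one, at chr2:74213774-74213833, gave 18.6 in KD1 and 20.7 in KD2, well above background, and 7.37 in NC, not well above background. Set against the lowest signal that counts on the NC array, KD2 stood at 1.15-fold, a log2 difference of 0.20 with an error of 0.80. That difference lies inside the error, and no fold can be given for KD1. The probe passed the filter only through the knockdown arrays, so its difference is not read further.

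Counted by probe, 13 of the 18 were well above background on all 3 arrays. Of these, 8 were lower than NC in both knockdowns and 5 higher, with 0 in opposite directions between the knockdowns, and 3 were at least 1.5-fold lower and 2 at least 1.5-fold higher in both. Of the genes well above background on all arrays, 39.8% were lower and 45.2% higher in both knockdowns by any size. At 1.5-fold the shares of all genes were 8.02% and 6.36%. The 13 probes belong to 6 genes, so they are not independent, and their counts are not set apart from these shares. Both knockdowns were set against the same NC array, so the shared side is no independent repeat. A fit with both knockdown arrays as 1 group against NC (limma with an intensity trend, 1 residual degree of freedom) called 0 of 22619 genes at an adjusted p under 0.05 (0%), with 7101 at an unadjusted p under 0.05 and a smallest adjusted p of 0.0742. Its standard errors come from the gap between the knockdown arrays, which shared 1 slide, moderated over all genes. The labels do not say which siRNA each of these arrays carried, and nothing in the fit measures the spread of NC. By the methods' t-test with Benjamini-Hochberg adjustment the count was also 0, with 3223 unadjusted. In the limma fit DNMT3A differed by -0.67 (SE 0.12, adjusted p = 0.0876, from 0.0178 to 0.305 over the alternatives with a filter on dim probes) and DNMT1 by -0.37 (SE 0.07, limma adjusted p = 0.0925, from 0.0351 to 0.0989). UHRF1 differed by -0.42 (SE 0.11, limma adjusted p = 0.118, from 0.0322 to 0.148) and DNMT3B by 0.80 (SE 0.21, limma adjusted p = 0.122, from 0.0125 to 0.128), each in the same direction on both knockdown arrays. For TET1 and TET2 the limma adjusted p was 0.321 and 0.671. None is given for TET3, whose NC value was set to the floor. No gene of the set passed the threshold in this fit. With 1 residual degree of freedom the limma calls moved with the setting, and DNMT3A, DNMT3B, DNMT1 and UHRF1 each passed under at least 1 alternative with a filter on dim probes. With no filter TET3 (limma adjusted p = 0.0024) and the unmeasured DNMT3L (5.4e-23) passed as well, at values set by the floor.

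Among 10 genes listed as methyl-CpG readers or their relatives, none reached 1.5-fold in both knockdowns by its brightest probe. Their medians were -0.32 and -0.13. MBD2 was at 0.03 and 0.08 by its brightest probe, but the mean of its other probe was -0.71. MBD1, a repressor of methylated promoters, was nearest by brightest probe among genes measured on all arrays (-0.51 and -0.62). The highest mean among its other probes was 0.01. Among 19 genes of demethylation and base excision repair, 3 were at least 1.5-fold lower and 1 higher in both. The shares of all genes were 8.02% and 6.36%, and the medians of these 19 were -0.07 and -0.09. TDG, the glycosylase that removes the oxidised bases made by TET enzymes, gave 7981 in KD1, 7629 in KD2 and 4087 in NC (0.88 and 0.87, with both of its probes higher). PARP1, a sensor of strand breaks, was lower (-0.67 and -0.75, its other measured probe at a mean of -0.40, and -0.60 and -0.50 over both, which ends the call). NEIL3, a glycosylase of oxidised bases in proliferating cells, was lower by both arrays (-0.98 and -0.65), as was GADD45G, a stress-response adaptor (-0.76 and -0.60, but -0.43 and -0.32 after normexp).

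Another 19 genes supply the methyl donor or the cofactors and inhibitors of TET enzymes. Of these, 2 were at least 1.5-fold lower and 2 higher in both knockdowns, against 8.02% and 6.36% of all genes. Their medians were 0.06 and 0.04. MTR, methionine synthase, gave 536 in KD1, 547 in KD2 and 1166 in NC (-1.20 and -1.12), and its 3 probes all had lower means, the smallest -0.69. MAT2A, which makes S-adenosylmethionine from methionine, gave 12239, 12102 and 7082 (0.71 and 0.74). IDH1, which makes the 2-oxoglutarate that TET enzymes use, was lower (-0.65 in each), and SDHB, a subunit of succinate dehydrogenase, higher (0.69 and 0.68, but 0.57 in each after quantile normalization, under the threshold). AHCY, which clears the inhibitor S-adenosylhomocysteine, was at 0.42 in each.

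Lists of genes known as targets of DNA methylation were read last. Some of them were expressed here, and their methylation was not measured. Of 29 germline and cancer-testis genes, 26 had a probe by name, 14 were not well above background on any array and 12 were measured on at least 1. Counting any probe, 7 were well above background in NC and 10 in each knockdown, the additional ones at signals up to 25.6 except ASZ1, at 57.6 in KD1 and 3.43 in KD2. Over all probes, 45.7% were well above background in NC, 46.8% in KD1 and 47.3% in KD2. Only 7 were well above background on all arrays, and none of these 7 was at least 1.5-fold higher or lower in both knockdowns. The other 5 were held at the floor on at least 1 array, which bounds their differences; PIWIL2, a germ-cell Argonaute, gave 25.3 in KD1 and 20.6 in KD2 and was not well above background in NC (4.49). The strongly expressed ones, MAGEB2 (18088 in KD1, 16827 in KD2 and 12676 in NC) and MAGEA6 (24687, 21382 and 20254), differed by 0.43 and 0.38 and by 0.20 and 0.05.

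Of 28 genes often methylated in colorectal cancer, 16 were not well above background on any array, among them the Wnt antagonists SFRP1, SFRP2, SFRP4, SFRP5 and WIF1, the endoderm factors GATA4, GATA5 and SOX17, and HIC1 and CHFR. The same number of genes, 12, was well above background on each array. Of the 12 measured, 3 were at least 1.5-fold lower in both knockdowns and 0 higher, against 8.02% and 6.36% of all genes. VIM, the intermediate filament of mesenchymal cells, gave 316 in KD1, 284 in KD2 and 826 in NC (-1.47 and -1.57). NDRG4 gave 522, 538 and 1120 (-1.19 and -1.09), and CACNA1G, a calcium channel subunit, gave 138, 146 and 308 (-1.24 and -1.11). MGMT was at 0.17 and 0.19 and CDKN2A at 0.24 and 0.27.

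Of 20 imprinted genes, whose single active copy depends on methylation marks, 17 were well above background on at least 1 array and 15 on all arrays. Among the 17, 1 was at least 1.5-fold lower and 2 higher in both knockdowns, against 8.02% and 6.36% of all genes. The medians of the 17 were 0.21 and 0.25. MAGEL2 and ZIM2 were not well above background in NC and entered these medians with NC set to the floor. NAP1L5 gave 193 in KD1, 185 in KD2 and 316 in NC (-0.80 in each). GRB10, a growth-restricting adaptor, was higher by its brightest probe (0.64 and 0.65), but the mean of its other probe was -0.24. L3MBTL1 was likewise higher by its brightest probe (0.64 and 0.73), with a lowest probe mean of -0.16. Over all probes both fell under the threshold. IGF2 was at 0.32 and 0.34 and H19, its neighbour of opposite imprint, at -0.79 and -0.31.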

How the data were processed

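Total RNA of HCT116 cells was hybridised in 1 colour (Cy3), 1 array per condition. The deposited intensity values are processed signals from Agilent Feature Extraction 10.7.1.1, named in the submitters' processing notes, and the deposited series-level table of the authors holds the same intensity values (1 of 57871 single-spot probes differed by over 0.1%). Probe positions are hg19 per the file headers. Control spots and spots that the software marked as outliers were left out (83 to 230 of 62976), repeat spots were averaged, log2 was taken and each array's 75th percentile (a signal of 223 to 237) subtracted. Values not well above background were raised to the lowest signal well above background on their array, or kept if higher. A gene was read by its brightest probe among those well above background on at least 1 array. The number of arrays limits the precision. limma 3.58.1 under R 4.3.3 took both knockdowns as 1 group, and the code was tested on simulated data. What is called the methods' t-test is the Student's t-test of the study's general statistics, run with the same grouping. The study states no such grouping and counted genes per knockdown.

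The genes and lists were chosen with earlier results of these data known. Of each list the genes at least 1.5-fold in both knockdowns were named, up to 8 per direction. PCNA, HELLS, USP7, MBD1, MBD2, AHCY, ASZ1, MAGEB2, MAGEA6, MGMT, CDKN2A, IGF2 and H19 were named after their values were seen. Promoters were RefSeq windows of 300 bases. Other scalings, background corrections, filters, probe choices and thresholds were tried. The position of probes within exons was not analysed here, nor were protein sequences. Some genes and a sequence are not reported here.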

Additional observations from a re-analysis of the deposited data

How the results depend on the processing

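The count of 1 methylation gene at least 1.5-fold lower in both knockdowns (DNMT3A) fell to 0 when a gene's probes were averaged and at 2-fold. The count of 1 higher (DNMT3B) was 0 with the percentile over bright probes, after quantile normalization, after normexp and at 2-fold, and 2 with the series-level table or no floor, where TET3 was added. DNMT3A stood at -0.26 over its probes and reversed to 0.70 on A_23_P420373 alone. TET1 was 0.19 over its probes and 0.56 on A_23_P322756, TET2 was -0.93 on A_33_P3266719, and TET3 was 0.74 with the series-level table and 1.36 with no floor. The other 55 of 62 values of these genes moved by less than 0.304, a per-array SD taken as the SD of KD1 minus KD2 over all genes (0.430) divided by the square root of 2.

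Among the list genes, 16 lower became 4 and 5 higher became 0 at 2-fold, and 5 higher became 3 over all probes and 8 with no floor. Over all genes, 1813 lower became 859 after normexp and 476 at 2-fold, and 1439 higher became 902 and 330. Of 200 values of 25 single genes under 8 settings, 197 moved by less than that SD, 3 by more (GADD45G -0.38 after normexp, GRB10 0.20 and L3MBTL1 0.26 over all probes) and 0 reversed. The limma count of 0 became 1598 with the percentile over bright probes, 2432 after quantile normalization, 3643 after normexp, 5174 with probes bright on all arrays, 31028 with no filter, where floored genes have almost no variance by construction, and 7101 unadjusted. It was 3626 with the series-level table and 3362 with no floor, both chosen after seeing the data, as was the mean over probes (0). It was 0 without the intensity trend. Apart from the floor, the cause was not tested. The methods' t-test with 1.5-fold took 434 genes and 0 of the methylation genes at its own threshold (p under 0.01). Slide as a block could not be fitted, since NC alone was on slide 2. No paired analysis was possible because each condition had 1 array. Signal over background limits DNMT3L, TET3 and the listed methylation targets near or under the floor.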
